A study of Caenorhabditis elegans with 20 samples.

Results

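The globin genes of the nematode Caenorhabditis elegans are the genes named glb followed by a number. Every gene whose name in any of the 5 deposited expression tables had that form was taken as a member, which gave 32 of the 18917 genes listed in any table. The choice used the gene name alone and no measured value. RefSeq's gene table for the assembly WBcel235 holds 34 globin symbols, of which 32 were matched and glb-26 and glb-34 were listed in no table.

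Globins are small proteins that hold a haem group, the iron-containing ring that binds oxygen and other gases. In vertebrates a few globins carry and store oxygen, whereas nematodes hold a large and diverse family, whose members have been linked to oxygen sensing, redox signalling and the response to low oxygen. Reporter studies in this species have placed many of them in nerve cells, and glb-1, among the first globins described in the species, has been studied as a gene induced by low oxygen.

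The series sequenced messenger RNA from translating ribosome affinity purification (TRAP), in which tagged ribosomes of one cell type are pulled from a whole-animal lysate together with the transcripts they carry. The purifications came from 5 strains, JAC127 for muscle, JAC382 for intestine, JAC126 for neurons in general (called neuronal here), JAC433 for serotonin neurons and JAC379 for dopamine neurons. From bleach-synchronised animals of each strain came 2 libraries of TRAP RNA and 2 of input, polyA+ RNA of the whole animal, making 20. All groups shared growth at 22 °C, food bacteria OP50-1 and collection as L4 larvae at 46 to 48 h past L1 release, and the labels name no other allele, no treatment and no promoter of the ribosome tag.

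Levels are the authors' RPKM, read counts divided by gene length and library size, so that genes of different length can be compared. Depth in the listed genes ran from 4458414 reads in neuronal input replicate 1 to 239674141 reads in dopamine input replicate 1, and neuronal input replicate 2 held 31496514 reads. A gene appears in a replicate only if its RPKM there reached 1 in one fraction or the other. In neuronal 8 of 8 pan-neuronal markers rose, where 16.8% of all genes tested did. In muscle 7 of 8 body wall muscle markers rose, where 1.1% of genes did. In intestine 2 of 8 intestine markers rose, where 807 of 14051 genes were called in either direction, 750 of them lower. In serotonin and dopamine no gene at all passed limma's test, with 4034 and 4015 genes at an unadjusted p below 0.05. With the replicate number as a block 2 of 5 serotonin neuron markers were higher and 1 lower in serotonin (9.77% and 29% of all genes). In dopamine 3 of 5 dopamine neuron markers were higher and 2 lower with the block (8.44% and 30.5% of all genes). Pharynx markers had a median log2 difference of 2.64 in serotonin and 2.32 in dopamine. With the block 2 of 4 were higher and 1 lower in each, and tnc-2 lay below both inputs in each. In dopamine TRAP replicate 2 the body wall muscle markers summed to 48823 RPKM, of which unc-54 alone gave 33081 RPKM. The sum was 5457 RPKM in TRAP replicate 1 and 11977 and 13287 RPKM in the inputs. In TRAP replicate 2 pat-10 and mlc-3 were below both inputs and the other markers of that list above. These markers' part in the globin values was not tested.

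The neuronal table was the one that listed the whole family. All 32 globin genes were listed there in both replicates, against 25 in serotonin, 24 in intestine, 23 in dopamine and 12 in muscle. Counting purifications that list a gene in both replicates, 12 globins were listed in all 5 purifications, 6 in 4, 7 in 3, 4 in 2 and 3 in a single one. Those 3 were glb-5, glb-16 and glb-31, and the single purification was the neuronal one each time. No value is given for a gene in a replicate that does not list it.

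**Figure D1:**
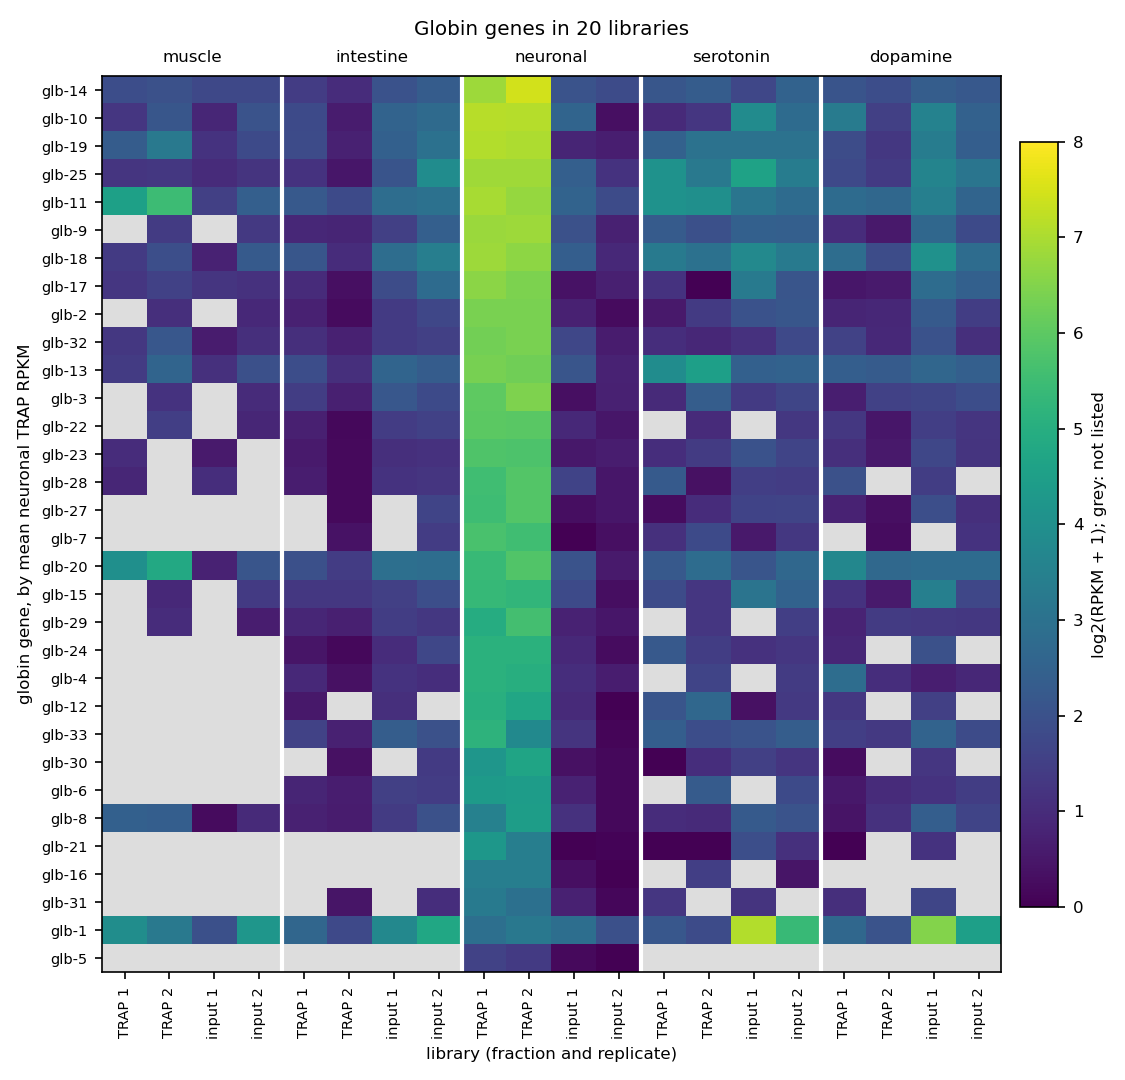
Each row is a globin gene, ordered by its mean RPKM in neuronal TRAP, and each column a library, with the 2 TRAP and 2 input libraries of each purification side by side. Colour gives log2(RPKM + 1) and grey cells are not listed. The 2 neuronal TRAP columns are the brightest for all rows but glb-1, whose highest values are 135 RPKM in serotonin input replicate 1 and 90.5 RPKM in dopamine input replicate 1.

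In the neuronal purification nearly the whole family was far higher on ribosomes than in the whole animal. The 32 globins summed to 1844 and 1902 RPKM in the TRAP libraries and to 55.8 and 18.9 RPKM in the inputs. Both TRAP libraries lay above both inputs for 32 of 32 globins (43.6% of all 13686 genes listed in both replicates). However, 17 of the 32 had inputs under 1 RPKM and were listed through TRAP alone, which fixes that order. The 17 were glb-2, glb-3, glb-5, glb-6, glb-7, glb-12, glb-16, glb-17, glb-19, glb-21, glb-22, glb-23, glb-24, glb-27, glb-29, glb-30 and glb-31. Among the 15 others TRAP lay above both inputs for 15 of 15, against 36.3% of all such genes. On the log2(RPKM + 1) scale, 30 of the 31 globins tested rose by limma's moderated test (Benjamini-Hochberg adjusted p below 0.05 over all genes), where 16.8% of the 13435 genes tested were called higher. Their differences ran from 2.69 for glb-31 to 6.31 for glb-19. The median over the 31 tested globins was 4.65, against 0.81 over all genes tested. Of the 15 globins with at least 1 RPKM in an input library 14 rose, against 9.07% of 12062 such genes. Of these 15 only glb-1, glb-11, glb-14 and glb-25 reached 1 RPKM in both inputs. The others were listed in replicate 2 through TRAP alone, which fixes the order within that replicate. With the block the count was 30 again, where 15.7% of genes were called higher. Pan-neuronal markers rose in the same libraries by a median of 5.88, with sums of 14482 and 6096 RPKM in TRAP and 459 and 102 RPKM in input. The globin that did not pass was glb-1, and glb-5 was not tested because its mean RPKM was under 1. In bulk material of this kind fewer cells of a type and less RNA per cell cannot be told apart.

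The call depends on the test and on single libraries. The same 30 globins were called by DESeq2 on recovered reads, where 18.7% of genes were called higher, whereas edgeR's quasi-likelihood test on those reads called 0 globins and 0 of all 13435 genes, with 30 globins at an unadjusted p below 0.05 and a lowest adjusted p of 0.0529. With 1 library left out, 3 globins were called without TRAP replicate 1, 6 without TRAP replicate 2, 19 without input replicate 2 and 30 without input replicate 1, while the differences of the 30 genes stayed between 2.38 and 6.81.

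At the top of the family stood 7 globins above or near 100 RPKM in both neuronal TRAP libraries. The highest mean belonged to glb-14, with 113 and 174 RPKM in TRAP and 3.17 and 2.56 RPKM in input. Next came glb-10, with TRAP at 140.03 and 136.5 RPKM and input at 4.92 and 0.244 RPKM. The third, glb-19, held 135 and 129 RPKM in TRAP and 0.770 and 0.582 RPKM in input. For each of the 3 both TRAP libraries stood far above the higher input, an order fixed for glb-19, listed through TRAP alone. Their log2 differences were 5.19 ± 1.16 for glb-14 (SE, limma adjusted p = 0.000364), 5.68 ± 1.19 for glb-10 (adjusted p = 0.000119) and 6.31 ± 1.25 for glb-19 (adjusted p = 3.51e-05). The difference of glb-19 exceeded that of 99.7% of all genes tested.

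The other 4 globins of this top group followed closely. For glb-25 TRAP gave 114 and 115 RPKM and input 4.36 and 1.24 RPKM. For glb-11 the TRAP libraries gave 122 and 104 RPKM and the inputs 4.81 and 2.56 RPKM. The gene glb-9 was measured at 111 and 112 RPKM in TRAP and at 2.94 and 0.654 RPKM in input. None of these input values came near TRAP. For glb-18 the values were 112 and 99.2 RPKM in TRAP and 4.19 and 0.906 RPKM in input. Their differences were 5.06, 4.65, 5.46 and 5.08 in that order, each with a limma adjusted p of at most 0.0021.

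A middle group of 11 globins lay between 40 and 100 RPKM in TRAP. Its upper members were glb-17 (95.7 and 85.5 RPKM), glb-2 (82.5 and 82.4 RPKM), glb-32 (78.5 and 83.6 RPKM), glb-13 (81.2 and 75.1 RPKM) and glb-3 (63.6 and 86.4 RPKM). The input of these 5 genes ranged from 0.185 to 3.32 RPKM, so that no input library reached a TRAP library. For glb-17, glb-2 and glb-3 listing through TRAP alone fixed that order. Lower in the group were glb-22 (62.3 and 61.0 RPKM), glb-23 (55.1 and 53.8 RPKM), glb-28 (45.6 and 56.6 RPKM), glb-27 (45.1 and 56.6 RPKM), glb-7 (51.2 and 45.3 RPKM) and glb-20 (41.0 and 55.3 RPKM). The inputs of glb-20 were 3.17 and 0.499 RPKM, and glb-7 had no read in input replicate 1 and 0.269 RPKM in replicate 2. The log2 differences of the 11 genes ran from 4.28 ± 1.31 for glb-20 (limma adjusted p = 0.0104) to 5.96 ± 1.30 for glb-17 (limma adjusted p = 0.000261). The gene glb-13, whose mutant has been used in worms to study vertebrate neuroglobin, had a difference of 4.87 ± 1.26 (limma adjusted p = 0.00297).

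A lower group of 8 globins followed, whose TRAP values lay between 13.05 and 47.7 RPKM. It held glb-15 (39.9 and 37.9 RPKM), glb-29 (29.7 and 47.7 RPKM), glb-24 (33.6 and 33.5 RPKM), glb-4 (33.2 and 31.7 RPKM), glb-12 (31.7 and 25.8 RPKM), glb-33 (34.8 and 13.05 RPKM), glb-30 (17.4 and 24.5 RPKM) and glb-6 (19.6 and 20.2 RPKM). The gene glb-12, which is needed for normal fertility, had 0.935 RPKM and then no read in input, and its difference was 4.41 ± 1.29 (limma adjusted p = 0.00723). The gene glb-33, which joins a globin domain to a receptor-like membrane protein, stood out by its TRAP replicates, which differed 2.67-fold, and its inputs were 1.32 and 0.0847 RPKM. Its difference was 3.82 ± 1.26 (limma adjusted p = 0.0184). For glb-6, a globin known from neurons and from structural work, input was 0.701 and 0.124 RPKM and the difference 3.92 ± 1.21 (limma adjusted p = 0.0114).

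The bottom of the order was formed by 6 globins. In TRAP glb-8 held 10.4 and 21.1 RPKM, glb-21 held 17.9 and 9.66 RPKM, glb-16 held 9.82 and 9.83 RPKM and glb-31 held 8.92 and 6.69 RPKM. All 4 rose, by 3.33, 3.79, 3.26 and 2.69 on the log2 scale, with limma adjusted p of 0.0301, 0.00336, 0.00651 and 0.0251. The 2 remaining globins, glb-1 and glb-5, are described on their own. Of the 31 neighbouring pairs in the order of TRAP means, 21 had overlapping ranges, so most neighbours in that order did not differ beyond their spread. Over the 32 globins the higher TRAP replicate was at most 2.67 times the lower, with a median of 1.13 times, and over all genes with reads in both it was 1.53 times at the median. Across the transcriptome 27 of 32 globins lay above the median neuronal TRAP level of 14.0 RPKM.

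The input side of these comparisons is thinly sequenced. In neuronal input replicate 1 the globins held between 0 and 21 reads, with 22 of 32 under 10 reads, and in replicate 2 between 0 and 79 reads, with 14 of 32 under 10. In TRAP they held 124 to 17371 reads. Where input is near 0 the added 1 RPKM also sets a ceiling on the difference. Rescaling the libraries by their median ratio (RLE) moved the median neuronal difference of all genes from 0.81 to -0.09, and under it 30 of 31 globins stayed above 0, with glb-1 turning to -0.39.

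The gene glb-5, which shapes the response of oxygen-sensing neurons to changes in oxygen, was among the least abundant. It held 2.01 and 1.56 RPKM in neuronal TRAP and 0.150 and 0 RPKM in input, the second being no read. It was listed through TRAP alone, which fixes the order of the 2 fractions, and no test was made. Its neighbour on the chromosome is glb-6, with 19.6 and 20.2 RPKM in neuronal TRAP. Other genes of oxygen-sensing neurons were set beside it. The soluble guanylate cyclases gcy-32, gcy-33, gcy-35, gcy-36 and gcy-37, which bind oxygen through haem or pair with subunits that do, ranged from 10.9 to 24.7 RPKM in neuronal TRAP. Lower, nearer to glb-5, were gcy-31 at 2.04 and 2.92 RPKM and the subunits of the cGMP-gated channel, tax-2 at 5.94 and 2.80 RPKM and tax-4 at 5.34 and 2.94 RPKM. Of 10 oxygen sensing genes, 9 were tested in neuronal and 9 rose, where 16.8% of all genes tested did. Their median log2 difference was 3.19. All 10 had inputs under 1 RPKM and were listed through TRAP alone, which fixes the order of the 2 fractions. The largest were gcy-32 (4.40 ± 1.14, limma adjusted p = 0.0031) and gcy-37 (4.31 ± 1.19, limma adjusted p = 0.0048). The tenth, gcy-34, was too low to test, at 1.40 and 1.98 RPKM in TRAP and no read in either input. Also in that list, the neuropeptide receptor npr-1 differed by 2.83 ± 0.75 (limma adjusted p = 0.0036), with 12.1 and 2.96 RPKM in TRAP. Outside the neuronal table gcy-35 alone was listed among the 10, in 1 replicate of dopamine.

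Of 6 hypoxia pathway genes tested in neuronal 1 rose, about the share over all genes (16.8%). It was the transcription factor hif-1, with 227 and 376 RPKM in TRAP and 46.0 and 12.97 RPKM in input (difference 3.52 ± 0.94, limma adjusted p = 0.0038). The prolyl hydroxylase egl-9, which marks HIF-1 for destruction, differed by 2.65 ± 1.29 (limma adjusted p = 0.165). The list's median was 1.91. Among 7 haem trafficking genes 4 were tested in neuronal and 0 passed limma, 0 also at an unadjusted p below 0.05, with a median of -0.16. The haem importer hrg-4 held 12.02 and 1.94 RPKM in TRAP and 26.03 and 0.233 RPKM in input, and the groups overlapped. In the other purifications no gene of the 2 lists passed without the block. With it, of 6 hypoxia pathway genes tested in each, 2 were higher and 2 lower in serotonin (9.77% and 29% of all genes), 3 were lower in dopamine (30.5% of all genes) and 1 was higher in muscle (3.26% of all genes). Of the haem trafficking genes 4 of 4 tested were lower in serotonin and 3 of 5 in dopamine, beside the same shares.

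The neuronal excess was also seen against the other purifications, whose libraries were normalised separately. Among the 29 globins listed in 2 or more purifications, 28 had their highest TRAP mean in neuronal, and for 28 of them both neuronal libraries lay above every other TRAP library. The exception was glb-1, highest in muscle TRAP. The same counts over all genes were not made, so no share stands beside these. Where the next purification had reads, neuronal was between 2.28 times (glb-20, muscle next) and 81.5 times (glb-27, serotonin next) the next highest mean, with a median of 25.4 times over 27 genes. Among purifications that list the gene in both replicates, the next highest was serotonin for 17 of the 28, muscle for 6, dopamine for 5 and intestine for 0. Single listed replicates are left out of that order, such as glb-6 in serotonin TRAP replicate 2 at 3.96 RPKM.

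**Figure D2:**
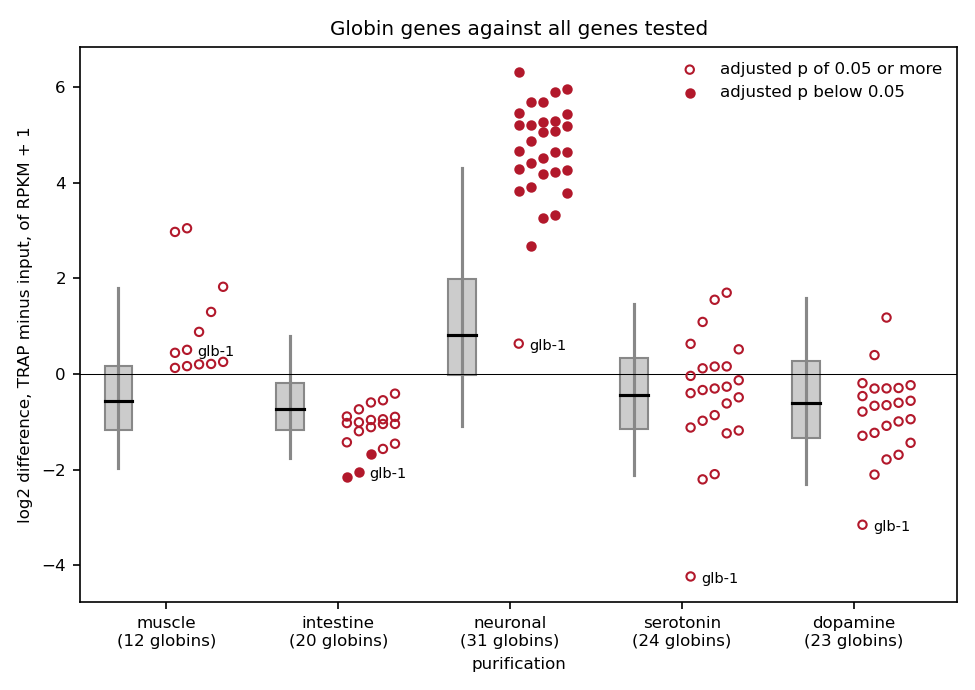
For each purification, red circles give the log2 difference of TRAP minus input of each globin gene tested, filled where the adjusted p without the block was below 0.05. The grey box and line beside them give the middle 50% and the 5th to 95th percentile of all genes tested, with the median in black. The neuronal circles other than glb-1 lie at 2.69 or above, and glb-1 is the lowest circle in serotonin and dopamine.

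Muscle TRAP held a short list of globins, in which glb-11, glb-20 and glb-8 stood farthest above input. The gene glb-11 stood at 22.5 and 44.1 RPKM in muscle TRAP and 1.87 and 4.41 RPKM in input. For glb-20 the values were 15.0 and 27.3 RPKM in TRAP and 0.706 and 3.31 RPKM in input. The gene glb-8 held 4.50 and 4.23 RPKM in TRAP and 0.180 and 0.946 RPKM in input. For all 3 genes both TRAP libraries were above both inputs, an order fixed for glb-8, which was listed through TRAP alone. No globin of 12 tested was called without the block, where 1.1% of 10048 genes were called higher and 0.945% lower, and 3 had an unadjusted p below 0.05. With the replicate number as a block 2 of 12 passed, where 3.26% of genes were called higher: glb-11 at 3.05 ± 1.21 (limma adjusted p = 0.0134) and glb-20 at 2.97 ± 1.25 (limma adjusted p = 0.0325). The value for glb-8 was 1.82 ± 0.73 (limma adjusted p = 0.0796 with the block). These 3 genes passed once libraries were RLE rescaled without the block, with glb-8 at a limma adjusted p of 0.0497, and leaving out input replicate 2 alone gave 2 calls. On recovered reads edgeR called 3 globins higher, where 2.85% of genes were, and DESeq2 4, where 8.82% were, with glb-11 and glb-20 among both.

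The other 9 globins tested in muscle were not called with or without the block. Their differences ran from 0.13 for glb-18 to 1.30 for glb-19, which held 4.02 and 8.47 RPKM in TRAP and 1.26 and 2.48 RPKM in input. All 12 differences were above 0, also after RLE rescaling, and their median was 0.47 against -0.56 over all genes. Both TRAP libraries were above both inputs for 8 of the 12 listed, against 13.4% of all genes listed in both replicates, and below them for 0 of 12 against 28.8%. Pan-neuronal markers in the same libraries summed to 220 and 309.5 RPKM in TRAP and 129.8 and 308 RPKM in input. Of 6 such markers tested in muscle 0 passed with or without the block, with a median difference of 0.35 (all genes -0.56). Their part in the globin values was not tested.

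Intestine TRAP was lower than its input for every globin it listed. Both TRAP libraries were below both inputs for 24 of 24 (56.9% of all genes listed in both replicates), but 11 of the 24 had TRAP under 1 RPKM and were listed through input alone, which fixes that order. Among the 13 others it was 13 of 13, against 54.3% of all such genes. Of these 13, glb-3, glb-10, glb-19, glb-25, glb-32 and glb-33 had TRAP under 1 RPKM in replicate 2, which fixes the order within that replicate. Without the block 3 of 20 globins tested fell, where 5.34% of 14051 genes were called lower. These were glb-25, with 1.26 and 0.392 RPKM in TRAP and 3.23 and 13.7 RPKM in input (-2.16 ± 0.53, limma adjusted p = 0.0039), glb-1 (-2.05 ± 0.64, limma adjusted p = 0.0373) and glb-17 (-1.67 ± 0.47, limma adjusted p = 0.0181). For glb-17 TRAP gave 0.975 and 0.268 RPKM and input 2.59 and 6.02 RPKM, so listing through input alone fixed its order. Of the 13 globins with at least 1 RPKM in a TRAP library 2 fell, against 4.07% of 13410 such genes. With the block 6 globins fell, where 20.9% of genes were called lower, the others being glb-10 (-1.46, adjusted p = 0.0197), glb-18 (-1.57, adjusted p = 0.0163) and glb-19 (-1.43, adjusted p = 0.0228).

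The median difference of the 20 globins in intestine was -1.04 against -0.74 over all genes. After RLE rescaling, which moved the median of all genes to -0.04, 19 of 20 stayed below 0 with glb-15 at 0.13, the globin median was -0.57, and no globin and no gene passed limma without the block. Leaving out TRAP replicate 2 or input replicate 2 also gave 0 calls, as did a minimum mean of 5 RPKM. On recovered reads edgeR called 0 globins and 0% of genes, with 3 globins lower at an unadjusted p below 0.05, and DESeq2 called 1 globin lower, glb-25, where 1.94% of genes were. Pan-neuronal markers in intestine had a median difference of -1.07, with 2 of 8 called lower, and summed to 284 and 273 RPKM in TRAP and 394 and 527 RPKM in input. Their part in the globin values was not tested.

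In serotonin TRAP glb-12, glb-13 and glb-11 lay above input and glb-1 far below it. With the block 12.5% of the globins tested were called higher (9.77% of all genes) and 20.8% lower (29% of all genes). Neither share was read as a trait of the family. The gene glb-13 held 13.7 and 21.8 RPKM in TRAP and 4.51 and 4.77 RPKM in input. For glb-12 TRAP gave 3.36 and 5.37 RPKM and input 0.281 and 1.52 RPKM. For glb-11 TRAP gave 16.001 and 14.8 RPKM and input 7.60 and 5.90 RPKM. In each of these genes both TRAP libraries were above both inputs. Without the block 0 of 24 globins and 0 of 14587 genes passed limma (0% called), with 8 globins at an unadjusted p below 0.05 and a lowest globin adjusted p of 0.115. With the block these 3 genes were called higher, where 9.77% of genes were: glb-13 at 1.70 ± 0.42 (limma adjusted p = 0.00827), glb-12 at 1.55 ± 0.50 (limma adjusted p = 0.016) and glb-11 at 1.09 ± 0.38 (limma adjusted p = 0.0285).

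Another 5 globins were called lower in serotonin with the block, where 29% of genes were. These were glb-1 (-4.23), glb-10 (-2.20), glb-17 (-2.10), glb-15 (-1.24) and glb-8 (-1.18), with limma adjusted p from 0.00278 for glb-1 to 0.0386 for glb-8. In glb-10 TRAP gave 0.9501 and 1.42 RPKM and input 13.5 and 5.91 RPKM. In glb-17 TRAP gave 1.25 and 0.00871 RPKM and input 8.67 and 3.29 RPKM. Both genes were below input in both replicates. The gene glb-21 had no read in either serotonin TRAP library and 2.80 and 1.17 RPKM in input, and its mean was too low to test. Over the 24 tested globins the median was -0.32 against -0.44 for all genes, with 8 above 0 and 16 below, and 13 above 0 after RLE rescaling. Both TRAP libraries were above both inputs for 4 of 25 listed globins (19.9% of all genes) and below for 13 of 25 (41.4% of all genes), of which glb-21 was listed through input alone. On recovered reads edgeR called 0 globins and 0% of genes, with 5 globins at an unadjusted p below 0.05. DESeq2 called 2 globins higher, glb-11 and glb-13, where 8.79% of genes were, and 2 lower, glb-1 and glb-10, where 6.27% were. Pan-neuronal markers there summed to 1184 and 672 RPKM in TRAP and 690.3 and 350.5 RPKM in input, with 3 of 8 higher and 1 of 8 lower with the block, and their part was not tested.

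Dopamine TRAP was mostly at or below its input. Both libraries were above both inputs for 1 of 23 listed globins, glb-4, where 16.9% of all genes were, and below for 15 of 23, where 43.2% were. Listing through 1 fraction alone fixed that order for glb-4, which passed through TRAP, and for glb-2, glb-6, glb-17 and glb-27, which passed through input. The gene glb-4 held 6.26 and 1.08 RPKM in TRAP and 0.595 and 0.841 RPKM in input, so that the excess lay mainly in replicate 1. For glb-20 TRAP gave 11.98 and 5.55 RPKM, on either side of inputs at 6.02 and 6.005 RPKM. Without the block 0 of 23 globins and 0 of 14400 genes passed limma (0% called), with 6 globins at an unadjusted p below 0.05 and a lowest globin adjusted p of 0.085. With the block glb-4 was called higher, where 8.44% of genes were, at 1.18 ± 0.62 (limma adjusted p = 0.0108).

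With the same block 9 globins were called lower in dopamine, where 30.5% of genes were. Led by glb-1 (-3.15) and glb-17 (-2.10), they were completed by glb-25 (-1.79), glb-15 (-1.69), glb-9 (-1.44), glb-19 (-1.29), glb-8 (-1.23), glb-2 (-0.99) and glb-27 (-0.95). For glb-17 TRAP gave 0.409 and 0.506 RPKM and input 6.12 and 4.51 RPKM (limma adjusted p = 1.82e-05 with the block). For glb-25 TRAP gave 2.41 and 1.59 RPKM and input 11.3 and 7.56 RPKM (limma adjusted p = 0.00376 with the block). In both genes the groups did not overlap. The median of the 23 globins was -0.67 against -0.60 for all genes. Of the 23, 2 were above 0 and 21 below, and 7 were above 0 after RLE rescaling. Leaving out TRAP replicate 1 gave 1 call without the block and leaving out input replicate 2 gave 2. On recovered reads edgeR called 0 globins and 0% of genes, with 6 globins at an unadjusted p below 0.05. DESeq2 called glb-4 higher, where 8.68% of genes were, and glb-1 and glb-17 lower, where 5.54% were. Pan-neuronal markers summed to 678 and 279.8 RPKM in dopamine TRAP and 253 and 369 RPKM in input, and their part was not tested.

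**Figure D3:**
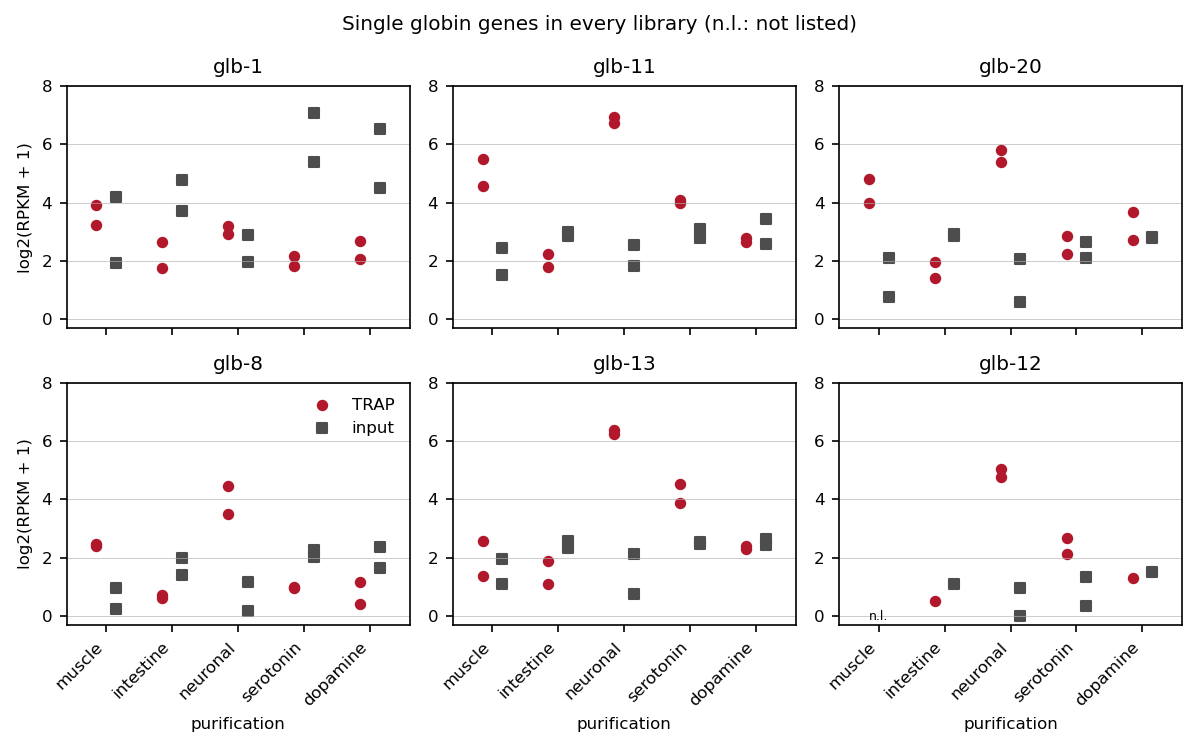
Each panel shows 1 globin gene, with log2(RPKM + 1) in the TRAP (red circles) and input (grey squares) libraries of each purification. TRAP lies above input in muscle and neuronal for glb-11, glb-20 and glb-8, and in neuronal and serotonin for glb-13, glb-12 and glb-11. The glb-1 input squares reach 135 RPKM in serotonin and 90.5 RPKM in dopamine.

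The gene glb-1 did not follow the rest of the family. It was the most abundant globin in all 10 input libraries, from 2.86 RPKM in muscle input replicate 1 to 135 RPKM in serotonin input replicate 1, with a median of 19.7 RPKM. In serotonin it held 3.51 and 2.58 RPKM in TRAP and 135 and 41.0 RPKM in input. In dopamine TRAP gave 5.38 and 3.16 RPKM and input 90.5 and 21.9 RPKM. The groups were far apart in both, and glb-1 made up 52.4% and 29.1% of the summed globin RPKM in the serotonin inputs. Its difference was -4.23 ± 0.65 in serotonin (limma adjusted p = 0.115, and 0.00278 with the block) and -3.15 ± 0.76 in dopamine (limma adjusted p = 0.088, and 3.22e-07 with the block).

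In intestine glb-1 gave 5.24 and 2.39 RPKM in TRAP and 12.3 and 26.5 RPKM in input. Muscle was the purification with its highest TRAP level, 14.1 and 8.48 RPKM, against 2.86 and 17.5 RPKM in input, where the groups overlapped (0.51 ± 1.23, limma adjusted p = 0.891). In neuronal it stood at 6.62 and 8.16 RPKM in TRAP and 6.44 and 2.89 RPKM in input (0.64 ± 1.30, limma adjusted p = 0.889). That value was below the median of 0.81 over all genes tested in neuronal. Across the 5 purifications its TRAP levels therefore spanned 2.39 to 14.1 RPKM, a narrower range than its inputs.

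The difference between purifications was tested as TRAP minus input in one, less TRAP minus input in the other. Neuronal exceeded intestine for 23 of 24 globins tested, where 13.4% of 12396 genes were called higher. The median of the 24 was 5.80 against 1.44 over all genes, and the largest were glb-19 at 7.74 ± 1.17 and glb-17 at 7.62 ± 1.08 (limma adjusted p = 0.000677 for each). The single globin that did not pass was glb-1, at 2.69 ± 1.21 (limma adjusted p = 0.156). With the block 23 were again called, where 18.4% of genes were called higher, and all 24 stayed above 0 after RLE rescaling. In neuronal 17 of 32 listed globins had inputs under 1 RPKM, and in intestine 11 of 24 had TRAP under 1 RPKM. For the globins with both, glb-2, glb-6, glb-17, glb-22, glb-23, glb-24 and glb-29, listing fixed the sign of the difference. All of these were among the 23 called. A count without such globins was not made.

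**Figure D4:**
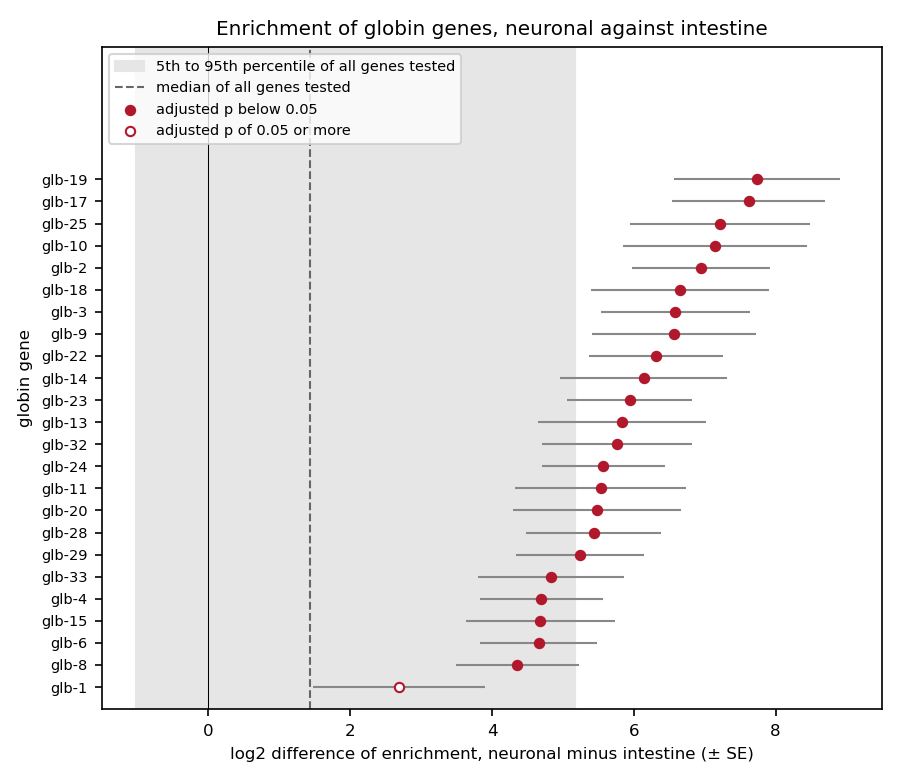
Points give the log2 difference of enrichment (neuronal TRAP minus input, less intestine TRAP minus input) of the 24 globin genes tested, with SE bars, filled where the adjusted p was below 0.05. Grey shading marks the 5th to 95th percentile of all genes tested and the dashed line their median of 1.44. All points lie to the right of the dashed line, and glb-1 at 2.69 is the lowest.

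Against muscle the neuronal excess was smaller for the globins that muscle TRAP itself held. Without the block 0 of 12 globins were called, where 0.03% of 10001 genes were called higher and 0.04% lower, although 8 had an unadjusted p below 0.05. With the block 8 of 12 were called higher, where 3.99% of genes were. These 8 were glb-17 (5.75 ± 1.18, limma adjusted p = 0.000879), glb-10 (5.43), glb-19 (5.01), glb-14 (4.99), glb-18 (4.95), glb-25 (4.90), glb-13 (4.43) and glb-32 (4.33). The 4 not called were glb-11 (1.60 ± 1.29, limma adjusted p = 0.495 with the block), glb-8 (1.51 ± 1.07, adjusted p = 0.475), glb-20 (1.31 ± 1.45, adjusted p = 0.576) and glb-1 (0.13 ± 1.49, adjusted p = 0.949). The median over all genes in this comparison was 1.26. After RLE rescaling glb-20 was at -0.07 and glb-1 at -1.25, the other 10 staying above 0, and 5 were called without the block. Leaving out neuronal input replicate 1 gave 4 calls without the block and leaving out neuronal input replicate 2 gave 1.

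Muscle exceeded intestine for 3 of 12 globins, where 3.89% of 10083 genes were called higher. They were glb-20 (4.17 ± 1.08, limma adjusted p = 0.0248), glb-11 (3.94 ± 1.14, limma adjusted p = 0.0447) and glb-8 (2.85 ± 0.65, limma adjusted p = 0.0164). For glb-8 listing fixed the sign, through TRAP alone in muscle and through input alone in intestine. With the block glb-19 (2.73, adjusted p = 0.0208) and glb-25 (2.32, adjusted p = 0.0218) were added, where 7.32% of genes were called higher. All 12 were above 0, before and after RLE rescaling, with a median of 2.10 against 0.15 over all genes. Calls fell to 0 when either intestine input or intestine TRAP replicate 2 was left out, to 1 without muscle TRAP replicate 2 or intestine TRAP replicate 1, and rose to 5 without muscle input replicate 2.

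Dopamine and serotonin enrichment could not be separated for any globin. None of 19 tested was called with or without the block, where 0% of 14001 genes were called in either direction without it and 0.0357% higher and 0.329% lower with it. The lowest globin adjusted p was 1.00 in limma, and 1 globin had an unadjusted p below 0.05. The farthest apart was glb-13, at -1.89 ± 0.63, lower in dopamine (limma adjusted p = 0.611 with the block), with 4.22 and 3.91 RPKM in dopamine TRAP and 13.7 and 21.8 RPKM in serotonin TRAP.

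The authors also deposited lists of enriched genes, which overlap these calls in part. In the authors' deposited table of neuron-enriched genes 31 of 2370 genes were globins, 96.9% of the family and all of it but glb-1, glb-5 included, with their average enrichment running from 11.4 for glb-31 to 143 for glb-7. Their ratio divides scaled counts to which 1 had been added, so it differs in scale from a ratio of RPKM. The authors' deposited table for muscle named 3 globins among 577 genes, glb-20 at 17.6, glb-11 at 15.1 and glb-8 at 14.4, and glb-8 had missed the limma threshold in muscle with and without the block. In the authors' deposited table for serotonin neurons 3 of 756 genes were globins, glb-12 at 8.93, glb-13 at 4.22 and glb-11 at 2.59. The authors' deposited tables for intestine (719 genes) and dopamine neurons (564 genes) held 0 globins, whereas glb-4 had been called higher in dopamine with the block. These tables were made from the same libraries and are no independent evidence.

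Whether reads were counted by strand is not given in the sources used here, so reads of a globin and of a gene that overlaps it could be mixed. By RefSeq's annotation 15 of the 32 globin genes overlap another protein-coding gene and 17 do not. In neuronal, 16 of the 17 without such a partner rose, with a median log2 difference of 4.65, and 14 of 14 tested with a partner rose, with a median of 4.87. Over all genes tested 16.8% rose. Of the 15 partners 6 were matched by name and tested, and 1 of the 6 rose, about that share. The 1 that rose was Y22D7AR.3, which overlaps glb-30 (2.40 ± 0.65, limma adjusted p = 0.00401). It held 6.74 and 2.60 RPKM in TRAP and no read in either input, so it was listed through TRAP alone, which fixes that order. The median of the 6 was 1.26, and the lowest of them, the neuropeptide gene nlp-24 overlapping glb-15, held 106 and 82.5 RPKM in TRAP and 327 and 143 RPKM in input. Both partners were named after their values were seen. The part of overlapping genes in the globin values was not tested.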

How the data were processed

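Groups were taken from the labels, with 2 TRAP and 2 input libraries per purification. STAR and HTSeq are the tools named per the submitters' processing notes; their versions, the genome build and the strand setting are not given in the sources used here. Per the file headers, the columns named counts hold counts; for 1 library of a replicate the deposited values equal reads plus 1, and for the other the same times a constant, a scaled signal. This was inferred from their values. The deposited ratio of TRAP over input divides these columns. The authors' deposited RPKM was used for every comparison.

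Genes present in both replicates, and averaging 1 RPKM or more, were tested on log2(RPKM + 1) by limma-trend (limma 3.58.1, R 4.3.3), without a replicate block, with Benjamini-Hochberg adjustment over all genes at 0.05. The ± values are SE of that fit, also where an adjusted p with the block stands beside them. Fold changes on this scale are understated for low genes. In muscle and neuronal, and with the block also in intestine, dopamine and the comparisons of neuronal or muscle with another purification, the prior degrees of freedom were infinite, so a gene's own replicate disagreement does not enter its p. Each replicate, biological per the file headers, pairs TRAP with input, and deviations of same-numbered libraries correlated at 0.451 to 0.679, so the number was read as a pairing and a blocked fit was an alternative. The members that differ between fits are given with both. Other alternatives were RLE rescaling, pseudocounts of 0.1 and 5, no minimum, a minimum mean of 5 RPKM, each library left out, and edgeR 4.0.16 and DESeq2 1.42.0 on reads recovered by undoing the constant, within 0.5 reads of those the RPKM imply for 95.8% to 100% of genes under 2000 reads. The tests were run on simulated data first.

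Named globins are those with an adjusted p below 0.05 in any of 9 comparisons, with or without the block, and glb-1, glb-5, glb-6, glb-12, glb-13, glb-26 and glb-33. The members and all lists were chosen with earlier results of these data known.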

Additional observations from a re-analysis of the deposited data

Results flagged for a closer look

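The differences in enrichment between purifications that passed limma (adjusted p below 0.05 over all genes, without the block) are set out here, each on the log2(RPKM + 1) scale. Between neuronal and intestine, 23 globins passed. Among them listing had fixed the sign for glb-2, glb-6, glb-17, glb-22, glb-23, glb-24 and glb-29. The 5 largest differences were 7.74 for glb-19, 7.62 for glb-17, 7.22 for glb-25, 7.14 for glb-10 and 6.94 for glb-2. Next came glb-18 at 6.65, glb-3 at 6.58, glb-9 at 6.57, glb-22 at 6.31 and glb-14 at 6.14. Values between 5 and 6 belonged to glb-23 at 5.94, glb-13 at 5.83, glb-32 at 5.76, glb-24 at 5.57, glb-11 at 5.53, glb-20 at 5.48, glb-28 at 5.43 and glb-29 at 5.24. The smallest were glb-33 at 4.83, glb-4 at 4.70, glb-15 at 4.68, glb-6 at 4.66 and glb-8 at 4.36. Adjusted p ranged from 0.000677 to 0.00435.

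Between muscle and intestine, 3 globins passed, glb-20 at 4.17, glb-11 at 3.94 and glb-8 at 2.85, the last with a sign that listing had fixed.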

How the results depend on the processing

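No single-globin result turned its direction in 1246 repeats of the 92 gene results called with or without the block. Of these repeats 1025 stayed on their side of the threshold, 131 lost the call and 90 gained one. The block alone and the minimum on the mean leave a gene's difference as it was, so those repeats could not turn. Among globins not called, RLE rescaling turned 5 in serotonin, 5 in dopamine and 3 in dopamine minus serotonin. It also turned 2 in neuronal minus muscle, 1 in intestine and 1 in neuronal. With the replicate block the calls became 2 in muscle, 6 in intestine, 8 in serotonin, 10 in dopamine, 8 in neuronal minus muscle and 5 in muscle minus intestine, and no other count of calls moved by over 1.5 times under that pairing. With the block and RLE rescaling together they were 4, 3, 6, 6, 8 and 5 in that order, and with RLE rescaling alone 3 in muscle, 0 in intestine and 5 in neuronal minus muscle. A pseudocount of 5 gave 4 in neuronal minus muscle. A minimum mean of 5 RPKM gave 0 in intestine and 1 in muscle minus intestine, where fewer genes were tested. On recovered reads edgeR gave 3 in muscle, 0 in intestine, 0 in neuronal (30 by limma) and 0 in serotonin and dopamine, and DESeq2 gave 4, 1, 30, 4 and 3 in that order; the cause of these shifts was not tested. Leaving out each library in turn gave 0 to 2 calls in muscle, 0 to 3 in intestine, 3 to 30 in neuronal, 0 in serotonin, 0 to 2 in dopamine, 0 to 4 in neuronal minus muscle, 22 to 24 in neuronal minus intestine, 0 to 5 in muscle minus intestine and 0 in dopamine minus serotonin. A group left with 1 library was assumed to vary like the others. Depth limits the neuronal inputs most, with a median of 4.5 and 12.5 reads per globin.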
